A study of Mus musculus with 73 samples.

Results

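The prostate and the seminal vesicle are the main accessory glands of the male mouse, and their RNA from wild-type animals was compared on 2-colour cDNA microarrays. The comparison used the 8 arrays labelled as normal prostate (4 samples) or normal seminal vesicle (4 samples), of 73 arrays in the series. All 8 samples came from C57BL/6 mice labelled wild type, and no transgene or treatment is labelled in either group. Age and the number of animals behind a sample were not given in the sources used here, so the spread between samples may be technical. The p-values rest on the spread within all 8 tissue groups of the series, tumors included. Each sample was labelled with Cy3 and hybridised against a universal reference RNA labelled with Cy5. The values are log2 ratios of sample over reference, so a value of 1 is a 2-fold higher signal in the sample. Normal mammary gland and normal lung (4 arrays each, from FVB mice) were used to place the differences among other normal tissues.

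Both glands secrete the fluid that carries sperm, and both depend on androgen for their growth and secretion. They differ in origin: the seminal vesicle grows from the Wolffian duct, a derivative of mesoderm, whereas the prostate buds from the endodermal epithelium of the urogenital sinus. The mouse seminal vesicle stores abundant small secretory proteins that clot into the copulatory plug. The mouse prostate is a set of paired lobes around the urethra, each with ducts that empty into it.

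The labels were checked against genes known for each gland. Of 26 seminal vesicle secretory genes listed, 2 were measured, and the Svs genes that define the gland were not among them. Of these, the secreted chaperone clusterin, Clu, had log2 ratios of 0.38, 0.64, 0.49 and 0.44 in prostate, against 1.28, 1.28, 1.51 and 1.90 in seminal vesicle. Clu passed limma's test at adjusted p = 0.0165, but not in some of the alternative fits given below. Its mean was 1.85 ± 0.20 in normal mammary gland and 0.64 ± 0.22 in normal lung (SD, n = 4 each). The mammary gland mean lay above the seminal vesicle mean of 1.49, so Clu did not single out seminal vesicle. The other measured gene of that list, the gap junction gene Gjb2, was not lower in prostate and did not pass (difference 0.41 ± 0.24, adjusted p = 0.163). Gjb2 had 2.40, 2.35, 1.98 and 1.36 in prostate, against 2.13, 1.30, 1.74 and 1.29 in seminal vesicle, and its arrays overlapped. Of 40 genes listed for prostate secretion and lumen, 17 were measured, and Pbsn and Tgm4 were not among them. Hoxb13, a homeobox gene of the posterior body that marks prostate epithelium, had 0.84, 0.60, 1.24 and 1.36 in prostate, against 2.21, 1.61, 1.80 and 1.61 in seminal vesicle, so it was not higher in the samples labelled prostate. In normal mammary gland and lung it averaged -0.15 ± 0.26 and -0.21 ± 0.12 (SD, n = 4 each), and both means lay below every array of the 2 glands. Spink1, a secretory trypsin inhibitor known in the mouse as a seminal vesicle product that binds sperm, was far above the reference on all 4 seminal vesicle arrays, as given below.

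The 2 tissues were far apart. Correlations over all features were 0.921 to 0.962 among the prostate arrays and 0.933 to 0.959 among the seminal vesicle arrays, but 0.561 to 0.626 between the tissues. Of 6761 genes tested, 3390 (50.1%) differed in limma's moderated test at an adjusted p under 0.05. Among these, 1666 (24.6% of those tested) were higher and 1724 (25.5%) lower in prostate. A difference of at least 2-fold was reached by 636 genes (9.41%), 416 of them higher (6.15%) and 220 lower (3.25%). The 4 arrays of one tissue all lay on 1 side of the 4 of the other for 3324 genes (49.2%). The median difference over all genes was 0.0006 and the median standard error 0.13 on the log2 scale. Differences below are log2, prostate minus seminal vesicle, with the standard error of the fit, and adjusted p-values are limma's. With so many genes passing, a gene list with near 24.6% higher and 25.5% lower members is close to the background.

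The order of the arrays in the laboratory's array database separates the tissues. Prostate arrays 1 to 3 carry neighbouring database numbers, and prostate array 4 belongs to another run of numbers. All 4 seminal vesicle arrays share a run that holds no prostate array. No run of numbers holds both tissues, so no value within a run can be given, and the parts of tissue and run cannot be told apart on these 8 arrays. What the numbers stand for beyond their order was not given in the sources used here. Runs that hold other tissues allow a fit with the runs as factors, in which 1733 genes passed and the median standard error was 0.24. Beside the 4 seminal vesicle arrays, their run holds just 1 array, of a mammary tumor. The correction for seminal vesicle in that fit, here and below, therefore rests on that 1 tumor array. Of the 152 named genes checked in that fit, those described as higher or lower that did not pass, or turned round, are Acta2, Actg2, Adamts1, Apobec2, Cdh5, Clu, Col4a1, Cycs, Gsn, Jchain, Mtap, Nid1, Nr4a1, Pla2g1b, Ptprb, Serpinb1a, Serpinf1, Tnnc2, Tnni2, Tnnt3 and Tpm2.

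Genes of striated muscle fibres were higher in prostate, with the largest median difference of the 44 lists examined. Of 33 measured skeletal muscle genes, 31 were higher, 1 was lower and 1 did not pass, with a median difference of 2.87. The mean over these 33 genes on each array was 3.53, 3.00, 3.04 and 3.06 in prostate, against 0.00, 0.09, 0.07 and 0.12 in seminal vesicle. Every prostate array was high and every seminal vesicle array was near the reference, as the plot of muscle genes by array shows. The normal mammary gland arrays ranged between -0.14 and 2.41, the normal lung arrays between 0.25 and 0.52. On the 5 arrays of prostate tumors in this series the mean lay between -0.22 and -0.06.

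**Figure D1:**
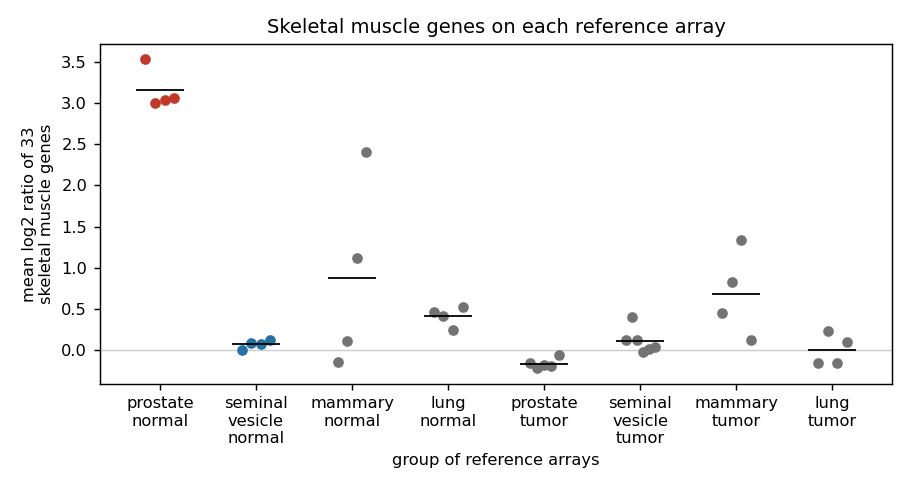
Mean log2 ratio (sample over reference RNA) of 33 skeletal muscle genes on each of the 35 reference arrays, by group, with 1 point per array and the group mean as a line. The 4 normal prostate arrays lie at 3.00 to 3.53, and the 4 normal seminal vesicle arrays at 0.00 to 0.12.

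Myoglobin, Mb, the oxygen store of muscle, had 6.10, 5.47, 5.57 and 5.56 in prostate, against -0.20, -0.22, -0.37 and 0.04 in seminal vesicle (difference 5.86 ± 0.50, adjusted p = 1.82e-11). Eno3, the muscle enolase, had 3.72, 2.76, 2.76 and 1.51 in prostate, against -3.34, -3.08, -3.18 and -2.97 in seminal vesicle (difference 5.83 ± 0.38, adjusted p = 4.86e-14). Its prostate array 4 was lower than the other 3 but still far above seminal vesicle. Fast troponin genes were also raised: Tnnc2 by 4.86 ± 0.80, Tnni2 by 4.68 ± 0.65 and Tnnt3 by 4.65 ± 0.50. The myosin genes were higher as well, Myh1 by 4.60 ± 0.58, Myh6 by 4.49 ± 0.47 and the light chain Mylpf by 4.70 ± 0.54. Trdn, an anchor of the calcium release complex, differed by 4.85 ± 0.32, and Apobec2, an RNA-editing family member of muscle, by 4.54 ± 0.61. Myl3, a slow myosin light chain, differed by 2.87 ± 0.13, but rested on 2 features that disagreed in size, 0.62 ± 0.13 and 5.11 ± 0.25.

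The muscle mean varied among the mammary gland arrays too, and the slope of each gene on the muscle mean over the 8 mammary arrays was used to mark genes that move with it. A slope of 0.2 or more was found for 152 of the 416 genes at least 2-fold higher in prostate (36.5%), against 378 of all 6761 genes (5.59%). Both counts include genes of the skeletal muscle list, whose mean defines the slope. Of those 33 genes, 31 were at least 2-fold higher and 2 had a slope under 0.2, so part of this contrast holds by construction. Muscle level and tissue move together on the 8 arrays of the 2 glands, so their parts in a difference cannot be told apart there. In bulk tissue, fewer cells of a type and less RNA per cell cannot be told apart either. With the mean of the muscle genes added to the fit as a covariate, 770 genes passed, at a median standard error of 0.29. The slope in that fit comes from the spread within tissue groups, widest in normal mammary gland, between -0.14 and 2.41. Every prostate array lay above that range, so a slope drawn mostly from mammary gland is extended to the glands. By its construction this fit removes the muscle genes themselves: the list gave 5 higher and 6 lower genes (median 0.17), and Tnnc2, Tnni2 and Apobec2 turned to negative differences past the threshold. Of the 152 named genes checked in that fit, those outside the muscle lists that are described as higher or lower and did not pass are Adamts1, B2m, Camkk2, Cdh5, Cks1b, Clu, Col4a1, Cycs, Cyp2b10, Defb1, Fcer1g, Fkbp4, Gsn, Hoxb9, Hsd17b4, Jchain, Krt5, Mtap, Ncam1, Nid1, Nr3c1, Nr4a1, Oaz2, Odc1, Ogn, Pla2g1b, Prph, Ptprb, Rpl35a, Rps14, Rps26, Rps6, Sc5d, Scamp1, Serpinb1a, Serpinf1, Sms, Sod2 and Tyrobp. Hspa5 and Hsp90b1, described below but not picked by the naming rules, are not covered by this list. The largest differences away from muscle are given next, among genes outside the muscle and fat lists with a slope under 0.2.

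Dcpp3, a demilune cell and parotid protein first known from salivary glands, had 7.89, 7.0, 7.06 and 6.95 in prostate, against 0.64, 0.83, 0.71 and 0.56 in seminal vesicle (difference 6.54 ± 0.15, adjusted p = 9.59e-27). This is a 93.0-fold difference, and the lowest prostate array exceeded the highest seminal vesicle array by more than 6 log2 units. Smr3a, an androgen-regulated secretory peptide gene of the submaxillary gland, had 4.02, 3.71, 3.39 and 5.18 in prostate, against -0.32, -0.35, -0.17 and -0.10 in seminal vesicle (difference 4.31 ± 0.21, adjusted p = 3.09e-17). Mup9, of the major urinary proteins that bind pheromones, had 5.22, 4.92, 5.20 and 4.45 in prostate, against -0.10, -0.11, -0.31 and -0.30 in seminal vesicle (difference 5.15 ± 0.44). The Mup family has near-identical copies, and a cDNA spot cannot separate them. Mia, a small secreted protein known from cartilage, had 4.06, 4.32, 3.51 and 2.92 in prostate, against 0.70, 0.42, 0.95 and 0.39 in seminal vesicle (difference 3.09 ± 0.41). The mucosal chemokine Ccl28 had 3.24, 2.85, 3.16 and 2.95 in prostate, against -0.01, 0.31, 0.19 and 0.43 in seminal vesicle (difference 2.82 ± 0.28). The arrays of the glands did not overlap on these 5 genes, a property by which they were chosen.

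Membrane and enzyme genes followed. Cckar, a receptor for cholecystokinin, had 2.96, 2.97, 2.43 and 2.11 in prostate, against -0.68, -0.40, -0.63 and -0.60 in seminal vesicle (difference 3.20 ± 0.17, adjusted p = 3.65e-16). Mfsd4a, of the major facilitator family of membrane transporters, had 2.76, 3.03, 2.36 and 2.42 in prostate, against -0.48, -0.39, -0.60 and -0.62 in seminal vesicle (difference 3.16 ± 0.14, adjusted p = 5.43e-18). Kcnn4, a calcium-activated potassium channel of secretory cells, had 1.5, 1.54, 1.67 and 1.16 in prostate, against -1.51, -1.10, -1.05 and -1.35 in seminal vesicle (difference 2.72 ± 0.27). Cyp2f2, a cytochrome P450 best known from club cells of the airway, had 4.89, 4.44, 4.43 and 3.95 in prostate, against 0.35, 0.68, 0.18 and 0.33 in seminal vesicle (difference 4.04 ± 0.40). Gsto1, an omega-class glutathione transferase, differed by 3.22 ± 0.37, but all its prostate arrays lay near 1 and the seminal vesicle arrays between -2.62 and -2.04. Anxa1, Nktr and Ldhc had prostate values near the reference and low seminal vesicle values. Anxa1, a phospholipid-binding protein induced by glucocorticoids, had 0.03, -0.28, -0.15 and -0.04 in prostate, against -3.25, -3.02, -3.01 and -3.02 in seminal vesicle. Nktr, which carries a cyclophilin domain, had -0.04, -0.29, -0.16 and -0.33 in prostate, against -3.03, -3.23, -2.66 and -2.89 in seminal vesicle. Ldhc, the lactate dehydrogenase subunit of testis, had -0.05, -0.25, -0.27 and 0.13 in prostate, against -2.92, -2.94, -2.73 and -2.70 in seminal vesicle, and spots of such related genes can share signal. Rab33a, a small GTPase, was among the 14 largest rises of all genes, with 4.91, 4.60, 4.11 and 4.53 in prostate, against -0.01, -0.03, 0.11 and -0.01 in seminal vesicle. Its slope on muscle was 0.51.

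The largest falls were those of Cd52, Spink1 and Mmp7. Cd52, a short GPI-anchored glycoprotein of lymphocytes that male tract epithelium also makes and passes to sperm, had -0.96, -0.60, -0.50 and -0.48 in prostate, against 6.00, 5.00, 6.35 and 6.86 in seminal vesicle (difference -6.69 ± 0.37, adjusted p = 1.35e-15). The signal was 103-fold lower in prostate, and the 2 features of the gene gave -6.60 ± 0.40 and -6.77 ± 0.37. Spink1 had 0.81, 0.57, 1.20 and 0.78 in prostate, against 6.59, 6.52, 7.16 and 7.40 in seminal vesicle (difference -6.08 ± 0.31, adjusted p = 1.75e-16), or 67.5-fold lower in prostate. The matrix protease matrilysin, Mmp7, had 0.49, 0.26, 0.53 and 0.41 in prostate, against 4.91, 4.95, 4.69 and 5.95 in seminal vesicle (difference -4.70 ± 0.33, adjusted p = 3.97e-13). All 3 genes were high on every seminal vesicle array and near the reference on every prostate array.

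Several more of the genes lower in prostate encode secreted proteins. The orosomucoids Orm1 and Orm2, plasma carriers of the acute phase, had differences of -3.87 ± 0.37 and -3.79 ± 0.30. Orm1 had 0.66, 0.21, 0.44 and 0.38 in prostate, against 3.89, 4.58, 4.16 and 4.54 in seminal vesicle, and the 2 genes are close copies whose spots can share signal. Rnase1, a secreted ribonuclease of the pancreatic type, had 0.48, 0.19, 0.14 and 0.06 in prostate, against 3.37, 3.06, 3.64 and 4.42 in seminal vesicle (difference -3.41 ± 0.33). Defb1, a beta-defensin of mucosal epithelia, was the only epididymis-list gene measured and had -0.01, -0.12, -0.19 and 0.04 in prostate, against 2.98, 2.22, 2.52 and 2.48 in seminal vesicle (difference -2.62 ± 0.40). Fndc5, the membrane precursor of irisin, had 1.68, 1.35, 0.77 and 0.87 in prostate, against 4.60, 4.52, 4.20 and 4.86 in seminal vesicle (difference -3.38 ± 0.28). Lgals9, a galectin that binds cell-surface sugars, had -2.06, -1.98, -1.75 and -1.67 in prostate, against 1.55, 1.43, 1.22 and 1.5 in seminal vesicle (difference -3.29 ± 0.26).

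Immune-labelled and intracellular genes completed this set. Lst1, a leukocyte-specific transcript, had -0.32, -0.30, -0.30 and 0.13 in prostate, against 3.91, 4.08, 3.94 and 4.46 in seminal vesicle (difference -4.30 ± 0.30). B2m, the light chain of MHC class I, had -0.30, -0.37, -0.13 and 0.04 in prostate, against 2.59, 2.62, 3.74 and 3.27 in seminal vesicle (difference -3.24 ± 0.37). Tead2, a transcription factor of the Hippo pathway, had -2.24, -2.20, -1.72 and -1.66 in prostate, against 1.31, 1.49, 1.38 and 1.24 in seminal vesicle (difference -3.31 ± 0.21). Rasa4, a Ras GTPase-activating protein, differed by -3.08 ± 0.23, and Adam6b, a relative of sperm surface proteins, by -2.86 ± 0.19. Primpol, a primase that restarts DNA synthesis, differed by -3.02 ± 0.32, with seminal vesicle arrays spread between 1.46 and 3.65.

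**Figure D2:**
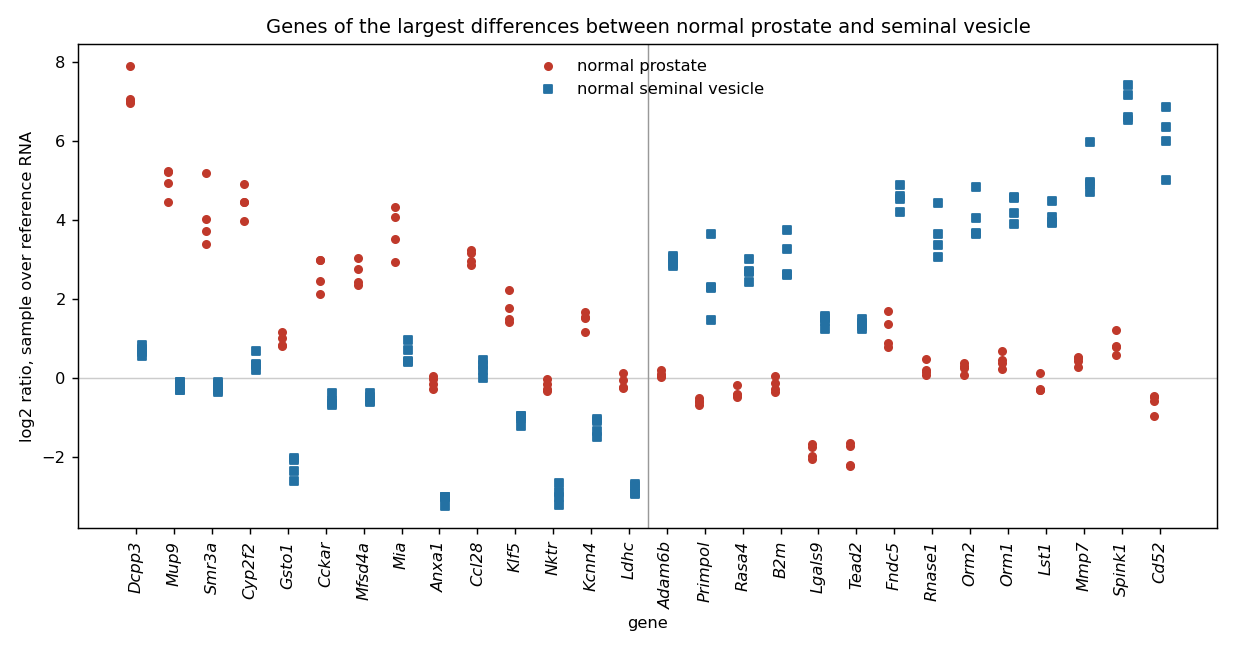
Log2 ratio (sample over reference RNA) on each array for the 14 largest rises away from muscle (left of the line) and the 14 largest falls (right of the line), with 4 normal prostate arrays as circles and 4 normal seminal vesicle arrays as squares per gene. The arrays of the glands do not overlap for any gene shown, a property by which these genes were chosen; Dcpp3 stands at 6.95 to 7.89 in prostate, and Spink1 at 6.52 to 7.40 in seminal vesicle.

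The list of prostate secretory and lumen proteins held genes of both directions, and Spink1 is a member of it although it is also known as a seminal vesicle product. Of its 17 measured genes, 6 were higher and 5 lower in prostate, and 6 did not pass, with a median of -0.19. The mean over the list was 1.55 ± 0.05 in prostate and 1.52 ± 0.14 in seminal vesicle (SD, n = 4 arrays each). Without Spink1, a choice made after seeing the data, 6 of 16 genes were higher and 4 lower, with a median of -0.14. The mean was then 1.59 ± 0.06 in prostate and 1.19 ± 0.13 in seminal vesicle, and the arrays of the glands did not overlap. This gap was opposite in sign to the median. The mean still held Dcpp3, the largest rise, whose difference of 6.54 weighs heavily on it. A mean without Dcpp3 as well was not taken, so the gap does not describe the list as a whole. Ceacam1, a cell adhesion molecule of epithelial lumens, was high in both glands, with 2.72, 2.61, 2.38 and 2.97 in prostate, against 4.31, 4.20, 4.51 and 4.61 in seminal vesicle. Its 2 features disagreed, -3.76 ± 0.29 for the one and 0.29 ± 0.29 for the other, and Ceacam family members are similar in sequence.

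Developmental regulators fell on both sides. Hox genes give cells their position along the body axis. Of 20 measured, 4 were higher and 5 lower in prostate, and 11 did not pass, close to the background. Hoxb6 had -0.17, -0.50, -0.46 and -0.29 in prostate, against 1.64, 2.14, 1.84 and 2.07 in seminal vesicle (difference -2.28 ± 0.18, adjusted p = 3.95e-12). Hoxb2 had -0.42, -0.58, -0.29 and -0.42 in prostate, against 1.66, 0.93, 1.33 and 1.31 in seminal vesicle (difference -1.74 ± 0.20, adjusted p = 8.91e-09), and Hoxb9 differed by -0.73 ± 0.10. In the other direction, Hoxc6 had -0.12, 0.30, 0.00 and -0.11 in prostate, against -1.11, -0.88, -0.73 and -0.89 in seminal vesicle (difference 0.92 ± 0.14). Hoxa10, which patterns the male and female ducts, did not pass at 0.44 ± 0.41, adjusted p = 0.385, nor did Hoxb13 at -0.80 ± 0.39, adjusted p = 0.0862, although in both cases the arrays of the glands did not overlap. Fitted on the 8 arrays of the glands alone with limma, Hoxa10 and Hoxb13 both passed, with adjusted p = 0.00349 and adjusted p = 0.00332.

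Regulators of the Wolffian duct and its mesoderm gave 4 higher and 7 lower genes of 21 measured, and 10 did not pass, with a median of 0.04. Over all genes 24.6% were higher and 25.5% lower. Quantile normalization gave 3 higher and 6 lower genes. The 4 genes of smallest p are described here and were all lower, while the 4 higher genes are not described. Gata3, needed for growth of the Wolffian duct, had -0.46, -0.33, -0.21 and -0.56 in prostate, against 2.49, 2.05, 2.10 and 2.35 in seminal vesicle (difference -2.64 ± 0.26, adjusted p = 5.12e-10). Gata2, which acts in the urogenital tract and as a partner of the androgen receptor, had -0.22, 0.07, -0.07 and 0.29 in prostate, against 2.60, 2.49, 2.77 and 1.78 in seminal vesicle (difference -2.40 ± 0.22, adjusted p = 1.28e-10). Both stood above the reference on every seminal vesicle array and near it on every prostate array. Gdnf, the ligand of the Ret receptor that guides outgrowth from the duct, had -0.42, -0.52, -0.47 and -0.43 in prostate, against 0.65, 1.10, 0.67 and 0.64 in seminal vesicle (difference -1.22 ± 0.14). Wt1, a zinc finger factor of urogenital mesoderm, had -1.04, -0.83, -0.79 and -0.31 in prostate, against 0.79, 0.42, 0.64 and 0.26 in seminal vesicle (difference -1.27 ± 0.21).

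Regulators of the urogenital sinus and prostate gave 12 higher and 9 lower genes of 32 measured, with a median of 0.15. Klf5, a zinc finger factor of renewing epithelia, had 1.49, 2.22, 1.76 and 1.40 in prostate, against -1.22, -0.96, -1.02 and -0.97 in seminal vesicle (difference 2.76 ± 0.19, adjusted p = 3.12e-13). Smo, the signal transducer of the Hedgehog pathway through which urogenital sinus epithelium and mesenchyme communicate, had 2.05, 1.82, 2.04 and 2.26 in prostate, against 0.14, 0.18, 0.11 and 0.14 in seminal vesicle (difference 1.90 ± 0.18, adjusted p = 2.81e-10). Creb3l4, an androgen-responsive membrane-bound factor of prostate, had 1.46, 1.35, 1.22 and 1.14 in prostate, against 0.05, -0.04, 0.17 and 0.10 in seminal vesicle (difference 1.23 ± 0.14, adjusted p = 1.73e-08). Id3, an inhibitor of basic helix-loop-helix factors, was lower, with -1.02, -1.70, -1.40 and -0.90 in prostate, against 0.34, -0.15, 0.48 and 0.85 in seminal vesicle (difference -1.64 ± 0.21). Foxa1, the pioneer factor of androgen receptor binding, did not pass, with 0.34, 0.50, 0.23 and -0.08 in prostate, against 0.17, 0.22, 0.19 and 0.31 in seminal vesicle, and its arrays overlapped (adjusted p = 0.907).

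Genes known to respond to androgen were divided much as all genes were, close to the background of 24.6% higher and 25.5% lower. Of 19 measured, 5 were higher and 5 lower in prostate, and 9 did not pass, but 3 higher without seminal vesicle array 1. The largest members on the low side were Mt1 and Mt2, of the metallothioneins, which bind zinc and copper. Mt1 had -2.60, -2.78, -2.55 and -1.71 in prostate, against 0.21, -0.29, 0.18 and 0.07 in seminal vesicle (difference -2.45 ± 0.32, adjusted p = 1.5e-07). Mt2 had -2.47, -2.64, -2.36 and -1.64 in prostate, against 0.25, -0.35, 0.06 and 0.24 in seminal vesicle (difference -2.33 ± 0.33). Mt3, a metallothionein first known from brain and not a member of the androgen list, differed by -1.30 ± 0.18. In all 3 genes prostate array 4 was the least low of the prostate arrays. These genes are close relatives, so their spots may share signal. Camkk2, a kinase induced by androgen in prostate, was lower, at -0.80 ± 0.13, and Adamts1, a secreted metalloprotease, was higher by 1.59 ± 0.27. Of 19 genes for steroid receptors and metabolism, 7 were higher and 2 lower in prostate, and 10 did not pass, with a median of 0.24. That count was not stable: the list gave 4 higher and 2 lower genes (median 0.21) under median centring and 2 higher and 1 lower genes (median 0.18) under quantile normalization. It gave 4 higher and 2 lower genes (median 0.25) without prostate array 2 and 4 higher and 3 lower genes (median 0.20) without seminal vesicle array 4. The muscle covariate left 0 higher and 0 lower genes (median 0.03). Hsd17b4, a peroxisomal 17-beta-hydroxysteroid dehydrogenase, was higher by 0.81 ± 0.14 and the glucocorticoid receptor gene Nr3c1 by 0.86 ± 0.23. Fkbp4, an immunophilin in steroid receptor complexes, was lower, at -0.79 ± 0.17.

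The accessory glands make polyamines, citrate, fructose and prostaglandins for seminal plasma. Of 13 polyamine genes, 5 were higher and 5 lower in prostate, and 3 did not pass. Sms, spermine synthase, was higher by 1.06 ± 0.14 and Oaz2, an antizyme that restrains ornithine decarboxylase, by 0.99 ± 0.13. Odc1, ornithine decarboxylase itself, had -0.61, -0.23, -0.67 and -0.39 in prostate, against -1.02, -0.93, -0.82 and -0.75 in seminal vesicle (difference 0.40 ± 0.14, adjusted p = 0.019). Mtap, which salvages the by-product of spermine synthesis, was lower, at -0.80 ± 0.15. Of 17 genes of fructose, citrate and zinc, 3 were higher and 8 lower in prostate, and 6 did not pass. The lower genes include the metallothioneins Mt1 and Mt3, given above, whose spots may share signal. Cs, citrate synthase, had 0.27, 0.19, 0.29 and 0.20 in prostate, against -1.09, -1.11, -0.99 and -1.01 in seminal vesicle (difference 1.29 ± 0.11, adjusted p = 2.18e-11), and Slc30a7, a zinc transporter of the Golgi, was lower, at -0.83 ± 0.09. Of 20 prostaglandin and arachidonate genes, 3 were higher and 5 lower in prostate, and 12 did not pass, but 3 lower without prostate array 3 or seminal vesicle array 4. Ptgr1, which inactivates prostaglandins, was lower, at -0.78 ± 0.10, from features that gave -1.31 ± 0.16 and -0.26 ± 0.12, of which the second did not pass. Pla2g1b, a secreted phospholipase, was higher by 0.54 ± 0.13.

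Genes of the endoplasmic reticulum, where secreted proteins are folded and imported, were lower in prostate. Of 34 measured, 2 were higher and 24 lower in prostate, and 8 did not pass, with a median of -0.46, against 25.5% lower and a median of 0.0006 over all genes. Ssr4, a subunit of the translocon-associated complex, had -0.45, -0.06, -0.25 and 0.24 in prostate, against 1.51, 1.64, 1.59 and 2.26 in seminal vesicle (difference -1.88 ± 0.17, adjusted p = 1.25e-10). Sec61b, of the translocation channel, had -0.06, 0.10, -0.27 and 0.24 in prostate, against 0.71, 0.88, 1.13 and 1.68 in seminal vesicle (difference -1.09 ± 0.16). Dad1, of the oligosaccharyltransferase, differed by -0.79 ± 0.10, and Pdia4, a disulfide isomerase, by -0.74 ± 0.11. On these 4 genes the arrays of the glands did not overlap. In the fit with the muscle covariate, the list gave 0 higher and 5 lower genes (median -0.25), and with the runs of database numbers as factors 1 higher and 9 lower genes (median -0.41).

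The promoters of this list were searched for the endoplasmic reticulum stress element, read as CCAAT and CCACG with 9 bases of any kind between them, on both strands before each RefSeq start site (GRCm38.p6). A match stood in 5 of the 29 promoters found for the list (17.2%), against 35 of 27025 promoters of all genes (0.13%). Among the genes tested here the share was 8 of 5348 (0.15%). The list was drawn up by gene function, so this excess describes its promoters and not the difference between the glands. Within the list a match stood in 3 of 21 promoters of genes lower in prostate (14.3%) and in 2 of 8 of the others (25%). The windows searched were longer than the 150 bases printed below. Hspa5, the chaperone BiP, and Hsp90b1, the chaperone GRP94, were chosen for display after their matches and values were seen. Hspa5 had -0.46, -0.41, -0.42 and -0.31 in prostate, against 0.02, 0.37, 0.23 and 0.50 in seminal vesicle (difference -0.68 ± 0.18, adjusted p = 0.00206). Hsp90b1 had -0.83, -1.02, -1.03 and -1.31 in prostate, against -0.60, -0.57, -0.42 and -0.27 in seminal vesicle (difference -0.58 ± 0.19, adjusted p = 0.0117). The 150 bases before each start are printed with the matched letters in capitals, for Hspa5 from chr2:34771940-34772089 (plus strand) and for Hsp90b1 from chr10:86705445-86705594 (minus strand). The Hsp90b1 match shown is on the opposite strand, and that promoter holds another match farther upstream.
Hspa5: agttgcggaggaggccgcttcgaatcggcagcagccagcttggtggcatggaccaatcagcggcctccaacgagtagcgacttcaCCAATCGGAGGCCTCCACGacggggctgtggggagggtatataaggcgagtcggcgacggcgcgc
Hsp90b1: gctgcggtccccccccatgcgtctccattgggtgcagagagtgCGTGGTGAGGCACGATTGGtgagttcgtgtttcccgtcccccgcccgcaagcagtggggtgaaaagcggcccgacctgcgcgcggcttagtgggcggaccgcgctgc

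Genes of amino acid synthesis and transport were also mostly lower in prostate. Of 30 measured, 6 were higher and 17 lower in prostate, and 7 did not pass, with a median of -0.44. Slc7a5, the large neutral amino acid transporter, had -2.07, -1.68, -1.47 and -1.90 in prostate, against 0.45, 0.18, 0.40 and -0.05 in seminal vesicle (difference -2.02 ± 0.16, adjusted p = 2.42e-12). Shmt2, which makes glycine from serine in mitochondria, had -2.44, -2.31, -2.37 and -2.23 in prostate, against -0.81, -0.40, -0.48 and -0.45 in seminal vesicle (difference -1.80 ± 0.14, adjusted p = 5.47e-12). Asns, asparagine synthetase, had -1.15, -0.70, -0.92 and -1.11 in prostate, against 0.54, 0.44, 0.33 and 0.54 in seminal vesicle (difference -1.43 ± 0.13, adjusted p = 1.65e-10). Psat1, of serine synthesis, differed by -1.38 ± 0.13. On each of these 4 genes every seminal vesicle array lay above every prostate array. Under the muscle covariate 2 higher and 7 lower genes (median -0.60) of the list were past the threshold.

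The amino acid response element bound by ATF4 was searched as TGATGNAA on both strands of the same windows. It stood in 4 of 25 promoters of this list (16%), against 1056 of 27025 promoters (3.91%). Among the genes tested here the share was 133 of 5348 (2.49%). This list too was drawn up by gene function, so the excess does not describe the difference between the glands. The element stood in 2 of 14 promoters of genes lower in prostate (14.3%) and in 2 of 11 of the others (18.2%). The 150 bases before the Asns start, chr6:7693210-7693359 on the minus strand of GRCm38.p6, show the match in capitals.
Asns: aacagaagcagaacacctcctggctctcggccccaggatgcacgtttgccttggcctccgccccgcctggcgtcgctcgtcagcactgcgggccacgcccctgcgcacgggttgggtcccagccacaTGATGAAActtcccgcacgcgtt

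Cytosolic ribosomal protein genes were lower in prostate without exception in the list. All 25 measured genes passed, with a median of -0.81. The list mean on each array was -1.64, -1.69, -1.62 and -1.27 in prostate, against -0.90, -0.87, -0.72 and -0.46 in seminal vesicle, and every prostate array lay below every seminal vesicle array. Rps26 differed by -1.43 ± 0.19, Rpl35a by -1.10 ± 0.17, Rps6 by -1.09 ± 0.16 and Rps14 by -1.04 ± 0.19. With the muscle covariate none of the 25 passed in limma's test and the median was -0.23. With the runs of database numbers as factors 6 passed and the median was -0.72. Ribosomal protein genes have many processed pseudogenes and similar cDNA, which spots cannot separate.

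Genes of the later secretory path were divided. Of 30 Golgi and vesicle genes, 7 were higher and 6 lower in prostate, and 17 did not pass, but 3 lower without prostate array 1, prostate array 3 or seminal vesicle array 3. Golga4, a golgin of the trans-Golgi, was higher by 1.51 ± 0.14, from features of 2.34 ± 0.21 and 0.67 ± 0.18. Creb3l1, a membrane-bound transcription factor of secretory cells, had 2.13, 2.24, 1.62 and 2.20 in prostate, against 0.98, 1.01, 0.80 and 0.42 in seminal vesicle (difference 1.25 ± 0.22). Scamp1, a secretory carrier membrane protein, was lower, at -0.57 ± 0.12.

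Among 26 glycosylation genes, 12 were higher and 6 lower in prostate, and 8 did not pass, with a median of 0.10. The 4 of smallest p were all higher in prostate. Gne, the enzyme that starts sialic acid synthesis, had 2.35, 2.42, 1.81 and 2.38 in prostate, against 0.38, 0.43, 0.18 and -0.28 in seminal vesicle (difference 2.06 ± 0.16, adjusted p = 1.65e-12). Cmas, which activates sialic acid to its CMP form, had 1.25, 1.65, 1.28 and 1.48 in prostate, against -0.23, -0.22, -0.50 and -0.23 in seminal vesicle (difference 1.71 ± 0.11, adjusted p = 5.3e-14). Galnt7, which adds sugar to mucin-type sites, had 1.92, 2.11, 1.61 and 1.40 in prostate, against -0.34, -0.08, -0.19 and -0.28 in seminal vesicle (difference 1.99 ± 0.12, adjusted p = 5.45e-15), and each of its 3 features was higher, by 1.31 to 2.48. Ugp2, which makes UDP-glucose, had 2.51, 2.33, 2.16 and 2.18 in prostate, against 0.08, 0.13, 0.09 and 0.12 in seminal vesicle (difference 2.19 ± 0.14, adjusted p = 5.3e-14). The muscle covariate left 9 higher and 1 lower genes (median 0.17) past the threshold in this list.

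Ion and water transport genes gave 11 higher and 6 lower genes of 29 measured, and 12 did not pass, with a median of 0.08. The 4 of smallest p, described here, were all higher, while the 6 lower genes are not described. Slc26a2, a sulfate transporter, had 2.05, 2.15, 1.79 and 2.61 in prostate, against -0.25, -0.22, -0.18 and -0.29 in seminal vesicle (difference 2.38 ± 0.16, adjusted p = 2.18e-13). Car6, a carbonic anhydrase secreted into saliva, had 1.33, 1.72, 1.53 and 1.51 in prostate, against -0.48, -0.92, -0.79 and -1.04 in seminal vesicle (difference 2.33 ± 0.16, adjusted p = 3.02e-13). Aqp5, the water channel of salivary and lacrimal glands, had 2.12, 1.93, 1.72 and 2.41 in prostate, against -0.41, -0.27, -0.26 and 0.02 in seminal vesicle (difference 2.27 ± 0.20, adjusted p = 4.12e-11). Car4, a membrane-anchored carbonic anhydrase, had 2.81, 2.13, 2.36 and 1.67 in prostate, against -0.16, -0.18, -0.22 and -0.19 in seminal vesicle (difference 2.43 ± 0.23). On each of these genes the prostate arrays were above the reference, and of the seminal vesicle values only 1 was, Aqp5 on array 4.

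Of 41 extracellular proteases, 12 were higher and 9 lower in prostate, and 20 did not pass. The serine protease hepsin, Hpn, had 0.18, 0.03, 0.04 and 0.70 in prostate, against -2.25, -2.06, -2.23 and -2.06 in seminal vesicle (difference 2.39 ± 0.14, adjusted p = 5e-15). The carboxypeptidases Cpe and Cpd, which trim peptides in the secretory path, were higher by 2.31 ± 0.17 and 1.76 ± 0.11. Of 25 protease inhibitors, 3 were higher and 9 lower in prostate, and 13 did not pass, with a median of -0.12. The lower count was not stable: it was 6 without prostate array 2 and 2 with the runs of database numbers as factors. Spink1 was on the low side. The 3 higher genes were Anxa1, given above, Serpinf1, an antiangiogenic serpin, by 1.30 ± 0.25, and Serpinb1a, an inhibitor of neutrophil proteases, by 0.60 ± 0.12.

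Detoxifying enzymes were divided. Of 35 antioxidant and glutathione genes, 12 were higher and 11 lower in prostate, and 12 did not pass, against 9 higher and 5 lower genes (median 0.02) under quantile normalization. Mgst3, a microsomal glutathione transferase, was higher by 1.91 ± 0.18 and the mitochondrial superoxide dismutase Sod2 by 1.00 ± 0.11. Gclm, a subunit of the enzyme that limits glutathione synthesis, was lower, at -1.19 ± 0.13. Of 37 xenobiotic and aldehyde genes, 14 were higher and 9 lower in prostate, and 14 did not pass. Cyp2b10, a cytochrome P450, had 3.20, 3.08, 2.85 and 3.20 in prostate, against 0.61, 0.36, 0.50 and 0.33 in seminal vesicle (difference 2.64 ± 0.30). Cbr2, a carbonyl reductase known from lung, was higher by 1.95 ± 0.26. Aldh1a2, which makes retinoic acid in mesoderm, was lower, at -0.80 ± 0.12. Of 20 lipid synthesis genes, 4 were higher and 4 lower in prostate, and 12 did not pass, with Me1, malic enzyme, higher by 1.27 ± 0.28 and Sc5d, of cholesterol synthesis, lower, at -0.87 ± 0.17.

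Energy genes were higher in prostate, where muscle genes were also high on all 4 arrays. Of 31 respiratory chain and ATP synthase genes, 24 were higher and 2 lower in prostate, and 5 did not pass, with a median of 0.85. Cycs, cytochrome c, had 0.80, 0.62, 0.64 and 1.03 in prostate, against -1.09, -1.27, -0.92 and -0.95 in seminal vesicle (difference 1.83 ± 0.19), and Cox6c differed by 1.40 ± 0.14. Of the 24 higher genes, 17 had a slope on muscle under 0.2, and with the muscle covariate the list gave 7 higher and 1 lower genes (median 0.35). Of 11 glycolysis genes, 8 were higher and 2 lower in prostate, and 1 did not pass, with a median of 1.00. Aldoa, the aldolase abundant in muscle, had 1.88, 1.35, 1.46 and 0.57 in prostate, against -2.08, -2.12, -2.10 and -2.02 in seminal vesicle (difference 3.39 ± 0.23). Ldha and Ldhb, lactate dehydrogenase subunits, were higher by 2.27 ± 0.18 and 2.08 ± 0.21, and Tpi1 by 2.46 ± 0.20. In that fit 4 higher and 1 lower genes (median 0.82) of this list were called.

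Cdh1 and Krt8, general markers of epithelium, did not pass the test. Cdh1, E-cadherin, had 3.02, 2.55, 2.69 and 2.32 in prostate, against 2.34, 2.91, 2.45 and 2.77 in seminal vesicle (difference 0.02 ± 0.31, adjusted p = 0.957). Krt8, a keratin of simple epithelia, had 0.11, -0.21, 0.18 and 0.33 in prostate, against 0.35, 0.14, 0.19 and 0.27 in seminal vesicle (difference -0.13 ± 0.19, adjusted p = 0.589). The arrays overlapped in both, and the intervals of 2 standard errors are within 0.7 of 0. Of 23 keratin and junction genes, 4 were higher and 8 lower in prostate, and 11 did not pass, but 2 higher without prostate array 1, prostate array 4 or seminal vesicle array 1. Cldn8, a claudin of tight epithelia, had 0.50, 1.15 and 1.59 in prostate, against 3.18, 4.18, 3.83 and 4.51 in seminal vesicle, with 1 prostate value missing and dropped from the fit (difference -2.85 ± 0.25). Cldn4, another claudin, was lower, at -0.83 ± 0.14, and Lgals3, galectin 3, was higher by 1.43 ± 0.25. Upk1b, a uroplakin of the bladder lining, had 0.43, 0.28, 0.33 and 0.35 in prostate, against 2.22, 2.43, 2.39 and 2.44 in seminal vesicle (difference -2.02 ± 0.29, adjusted p = 1.01e-06).

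Basal cell genes gave 6 higher and 5 lower of 20 measured. Trp63, the regulator of basal cells, had 1.05, 0.71, 0.93 and 0.81 in prostate, against 0.88, 0.65, 0.68 and 1.28 in seminal vesicle, and its arrays overlapped (adjusted p = 0.999). Krt15 and Krt6a, keratins of stratified epithelia, were higher by 1.39 ± 0.14 and 1.35 ± 0.14, and Krt5, the basal keratin, by 0.59 ± 0.18, adjusted p = 0.00831. Pkp1, a desmosomal plakophilin, was lower, with -0.25, -0.01, -0.09 and -0.01 in prostate, against 0.98, 1.00, 0.99 and 1.54 in seminal vesicle (difference -1.22 ± 0.11).

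Smooth muscle surrounds both glands. Of 12 measured genes, 5 were higher and 3 lower in prostate, and 4 did not pass, so the calls were of mixed direction. Acta2 and Actg2, smooth muscle actins, were higher by 1.01 ± 0.26 and 1.53 ± 0.31, and Tpm2, a tropomyosin also of striated muscle, by 2.38 ± 0.40. Tagln, transgelin, was lower, with 1.44, 1.08, 1.31 and 1.61 in prostate, against 2.24, 2.52, 2.36 and 2.88 in seminal vesicle (difference -1.14 ± 0.24). With the muscle covariate, which turned Acta2, Actg2 and Tpm2 to negative differences, the list gave 0 higher and 1 lower genes (median -0.26).

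Connective tissue genes were more often higher in prostate. Of 37 fibroblast and matrix genes, 20 were higher and 3 lower in prostate, and 14 did not pass, with a median of 0.61, and the list mean was -0.33, -0.36, -0.29 and -0.31 in prostate, against -0.96, -0.92, -0.87 and -0.90 in seminal vesicle. Ogn, osteoglycin, a small proteoglycan of matrix, had 0.33, 0.35, 0.56 and 0.35 in prostate, against -2.02, -1.48, -1.57 and -1.82 in seminal vesicle (difference 2.12 ± 0.33). Gsn, the actin-severing protein gelsolin, was higher by 1.49 ± 0.25. Of 16 basement membrane genes, 7 were higher and 0 lower in prostate, and 9 did not pass, with a median of 0.55. The muscle covariate left 1 higher and 0 lower genes (median 0.28) in that list, and the runs as factors 2 higher and 0 lower genes (median 0.30). Col4a1, a type IV collagen chain, differed by 1.11 ± 0.21, the linker nidogen, Nid1, by 1.32 ± 0.26 and the laminin chain Lama1 by 0.90 ± 0.12. Of the 20 higher matrix genes, 18 had a slope on muscle under 0.2. With the muscle covariate 3 higher and 0 lower genes (median 0.69) of the matrix list were called, and with the runs of database numbers as factors 14 higher and 2 lower genes (median 0.96). Quantile normalization gave 13 higher and 2 lower genes (median 0.41).

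Of 18 adipocyte genes, 8 were higher and 0 lower in prostate, and 10 did not pass. Car3, a carbonic anhydrase of fat and muscle, had 4.40, 4.22, 5.02 and 2.53 in prostate, against 0.64, 0.60, 1.28 and 0.42 in seminal vesicle (difference 3.30 ± 0.36). Slc2a4, the insulin-responsive glucose transporter of fat and muscle, had 3.69, 3.39, 2.58 and 2.98 in prostate, against 0.12, -0.32, 0.04 and -0.08 in seminal vesicle (difference 3.22 ± 0.23). The fatty acid transporter Cd36 was higher by 2.36 ± 0.28. Adipoq and Cidec, which mark fat cells more narrowly, did not pass, at -0.25 ± 0.22, adjusted p = 0.366 and -0.43 ± 0.19, adjusted p = 0.0628; they were singled out after their values were seen. Of the 8 higher genes, 3 had a slope on muscle under 0.2. With the runs of database numbers as factors the list gave 3 higher and 4 lower genes (median -0.42).

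Of 17 endothelial genes, 8 were higher and 2 lower in prostate, and 7 did not pass. Cdh5, the cadherin of vessel junctions, had 1.43, 1.13, 1.15 and 1.70 in prostate, against -0.01, 0.44, 0.35 and 0.20 in seminal vesicle (difference 1.10 ± 0.25), and Ptprb, an endothelial phosphatase, had 2.23, 1.99, 1.51 and 2.09 in prostate, against 0.66, 0.74, 0.27 and 1.54 in seminal vesicle, with seminal vesicle array 4 overlapping prostate. In the fit with the muscle covariate the list gave 0 higher and 0 lower genes (median 0.27). Of 19 nerve and neuroendocrine genes, 3 were higher and 2 lower in prostate, and 14 did not pass. Ncam1, the neural cell adhesion molecule, had -1.05, -0.77, -0.83 and -1.04 in prostate, against 1.09, 0.51, 1.27 and 0.49 in seminal vesicle (difference -1.76 ± 0.20, adjusted p = 7.94e-09). Prph, the filament peripherin of peripheral neurons, was higher, with 0.58, 0.16, 0.58 and 0.17 in prostate, against -1.24, -0.91, -1.30 and -1.15 in seminal vesicle (difference 1.53 ± 0.23).

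Immune genes fell on both sides. Of 11 T cell genes, 2 were higher and 2 lower in prostate, and 7 did not pass, and of 10 B and plasma cell genes, 4 were higher and 2 lower in prostate, and 4 did not pass. Cd3d, of the T cell receptor complex, was higher by 0.75 ± 0.14, and Jchain, which joins polymeric antibodies, by 1.66 ± 0.51 although all its values were below the reference. Of 25 macrophage and granulocyte genes, 3 were higher and 6 lower in prostate, and 16 did not pass. Fcer1g, a signalling chain of Fc receptors, was higher by 1.85 ± 0.22, and Tyrobp, an adaptor of similar function, was lower, at -0.86 ± 0.18. Of 9 MHC class II genes, 1 was higher and 3 lower in prostate, and 5 did not pass, with H2-DMb1 lower, at -0.74 ± 0.09. Of 19 MHC class I and interferon genes, 2 were higher and 3 lower in prostate, and 14 did not pass. Within it B2m was far lower, while Tap2, a peptide transporter for class I, was higher by 0.86 ± 0.10. Of 28 complement and acute-phase genes, 4 were higher and 8 lower in prostate, and 16 did not pass. Apod, a lipocalin, was higher, with 2.92, 2.60, 2.84 and 2.41 in prostate, against 1.14, 1.13, 1.07 and 1.72 in seminal vesicle (difference 1.43 ± 0.19).

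Mitosis genes were below the reference RNA in both glands. Of 34 mitosis genes, 4 were higher and 6 lower in prostate, and 24 did not pass, and of 30 DNA replication genes, 8 were higher and 5 lower in prostate, and 17 did not pass. The replication list gave 5 higher without prostate array 2, prostate array 3 or seminal vesicle array 1, and 4 higher and 5 lower genes (median 0.04) under quantile normalization. The mitosis list mean was -1.84, -1.59, -1.55 and -1.67 in prostate, against -1.61, -1.58, -1.50 and -1.65 in seminal vesicle. Cks1b, a cyclin-dependent kinase partner, was lower, at -1.41 ± 0.22 and the helicase subunit Mcm3 higher by 0.90 ± 0.14. Of 19 immediate early genes, 6 were higher and 1 lower in prostate, and 12 did not pass. These varied within a tissue: Nr4a1, a nuclear receptor induced by stimuli, had 1.73, 0.29, 0.19 and 1.62 in prostate, against 1.23, -0.94, -0.82 and -1.43 in seminal vesicle, and seminal vesicle array 1 lay among the prostate arrays. The 2 genes listed for red blood cells did not pass.

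**Figure D3:**
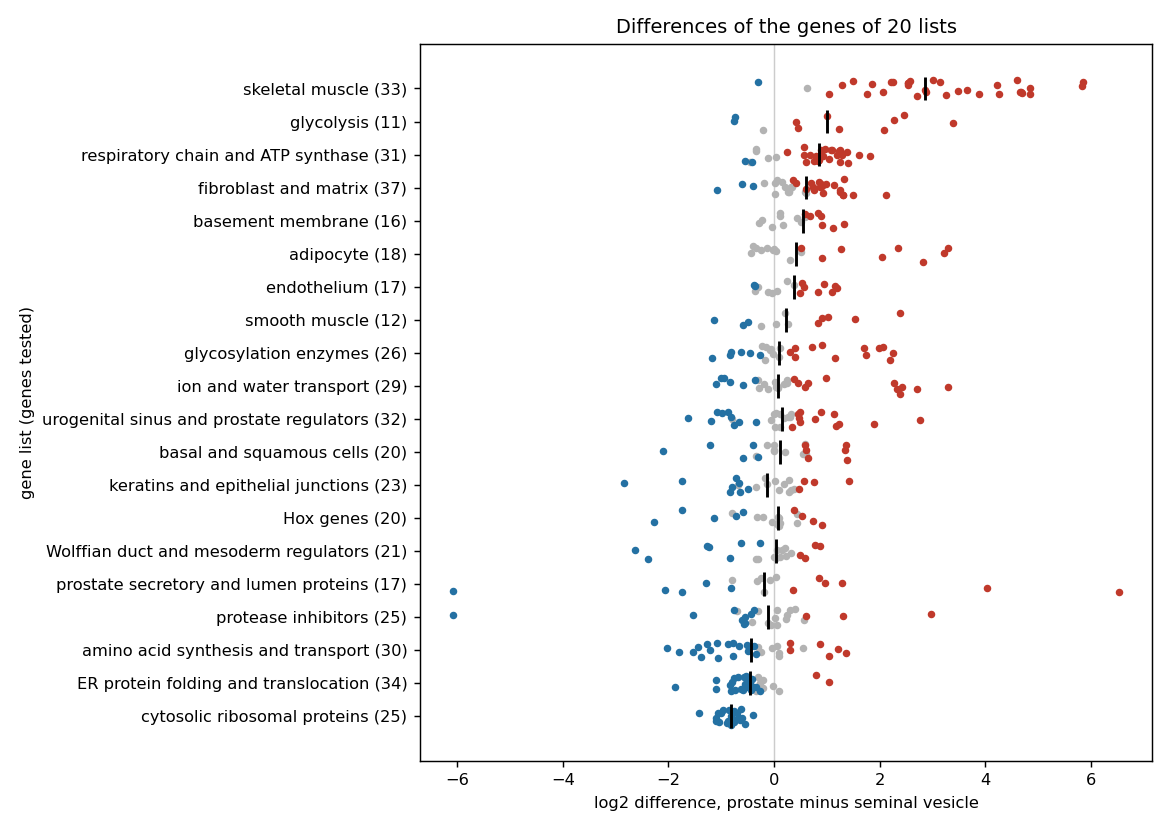
Log2 difference, prostate minus seminal vesicle, of each measured gene of 20 lists, with the median as a black line; red points passed higher, blue points passed lower and grey points did not pass. The medians run between 2.87 for skeletal muscle and -0.81 for cytosolic ribosomal proteins.

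The remaining question was which gland stands apart from other normal tissue. Against the mean of normal mammary gland and lung, 3259 of 6761 genes (48.2%) differed for prostate, 1360 higher (20.1%) and 1899 lower (28.1%). For seminal vesicle 4261 of 6763 (63%) differed, 1764 higher (26.1%) and 2497 lower (36.9%). The 2 comparisons share their mammary gland and lung arrays, and strain cannot be told apart from tissue in them. For the 416 genes at least 2-fold higher in prostate, only prostate above these tissues or seminal vesicle below them was counted. By that rule 122 stood apart only in prostate, 117 only in seminal vesicle, 173 in both and 4 in neither. For the 220 genes at least 2-fold lower the directions were reversed, giving 18 only in prostate, 133 only in seminal vesicle and 69 in both. A gland that differed in the other direction was not counted, such as seminal vesicle for Dcpp3, at 0.60 ± 0.13 above these tissues. Whether these splits differ beyond chance was not tested.

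Single genes show each pattern. Dcpp3 averaged 7.22 ± 0.44 in prostate, 0.69 ± 0.12 in seminal vesicle, 0.07 ± 0.29 in mammary gland and 0.10 ± 0.21 in lung (SD, n = 4 each). Spink1 averaged 0.84 ± 0.26 in prostate, 6.92 ± 0.43 in seminal vesicle, 0.11 ± 0.12 in mammary gland and 0.28 ± 0.12 in lung. In each the high tissue stood alone among the 4. Cyp2f2 was also high in lung, at 5.21 ± 0.38, and Mup9 in mammary gland, at 5.39 ± 0.34. Cd52 averaged -0.63 ± 0.22 in prostate, 6.05 ± 0.78 in seminal vesicle, 2.57 ± 0.70 in mammary gland and 1.04 ± 0.33 in lung, so prostate was the lowest of the 4. Mt1 averaged -2.41 ± 0.48 in prostate, 0.04 ± 0.23 in seminal vesicle, -2.08 ± 0.53 in mammary gland and -2.23 ± 0.20 in lung, so seminal vesicle stood apart from the other 3. Slc7a5 was likewise highest in seminal vesicle, with -1.78 ± 0.26 in prostate, 0.24 ± 0.23 in seminal vesicle, -1.92 ± 0.34 in mammary gland and -1.71 ± 0.15 in lung. Gata2 averaged 0.01 ± 0.22 in prostate, 2.41 ± 0.44 in seminal vesicle, -0.10 ± 0.13 in mammary gland and 1.52 ± 0.44 in lung.

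**Figure D4:**
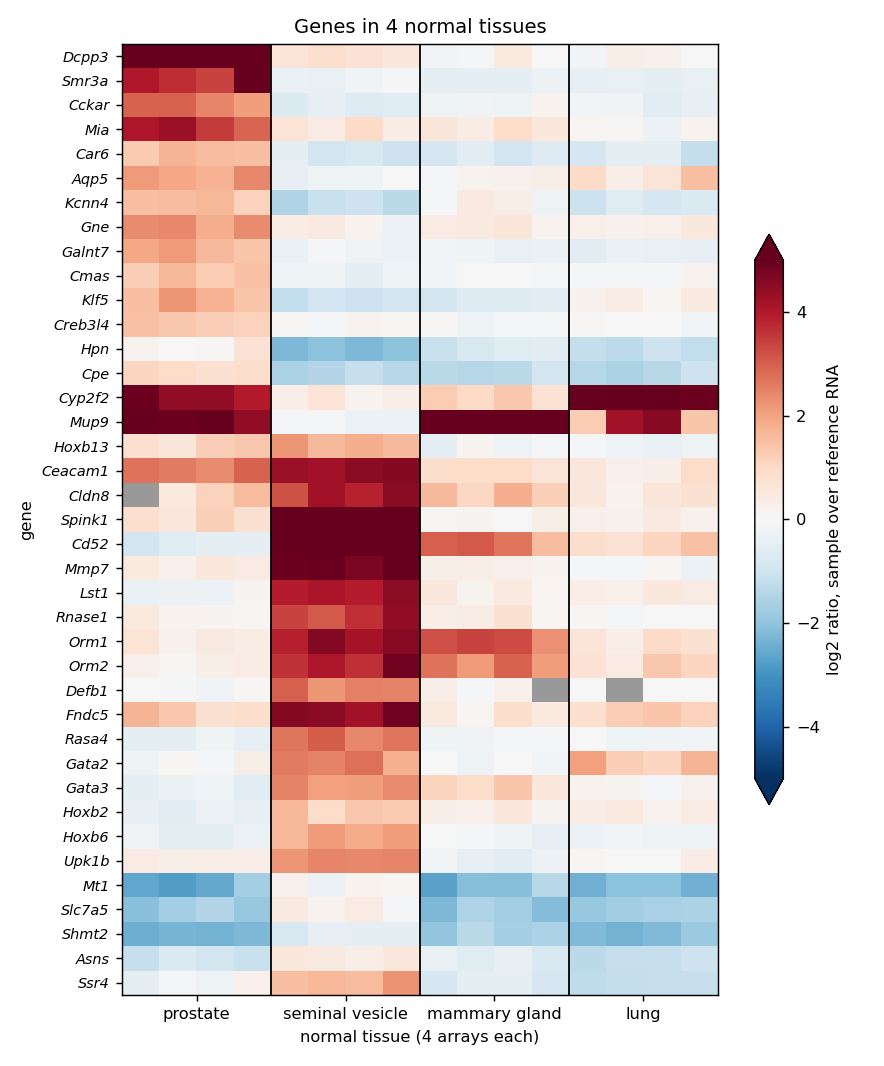
Log2 ratio (sample over reference RNA, colour scale ending at -5 and 5) of 39 genes on the 16 arrays of 4 normal tissues; grey cells are missing values. Dcpp3 and Smr3a are high in prostate alone, Spink1, Mmp7 and Lst1 in seminal vesicle alone, and Mt1, Slc7a5 and Shmt2 are lower in the other 3 tissues than in seminal vesicle.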

How the data were processed

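RNA of 4 samples of normal prostate and 4 of normal seminal vesicle was compared on 2-colour cDNA arrays. The authors deposited a log2 ratio for each feature on each array; how they were normalized was not given in the sources used here. Neither base nor direction was stated. The test of type by location that the series describes selected 2638 of 9573 features when the values were taken as log2, which equals the stated number, against 3770 read as natural logarithms and 4174 as log10. All 9 lung markers measured were higher in lung, and 9 of 10 mammary markers in mammary gland, than in the average of the remaining normal tissues, so the ratio was read as sample over reference.

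Of 9596 features, 7486 had 1 gene symbol, 483 had several and 1627 had none; only the first kind was used. Features of a gene were averaged, giving 6777 genes. Between 9522 and 9566 features had a value on each of the 8 arrays, whose medians lay between -0.0472 and 0.0062. No further scaling was applied. One group mean for each of the 8 tissue groups was fitted to all 35 reference arrays with limma 3.58.1 (R 4.3.3), for genes with at least 3 values in each gland, and p-values were adjusted by Benjamini-Hochberg over all genes tested. The steps were tested on simulated data.

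Genes named are the 14 largest rises, the 14 largest falls and the 14 largest rises away from muscle among passing genes whose arrays do not overlap, up to 4 genes of smallest p from each of 44 lists, and a set of genes known for these glands. Runs of database numbers were split where the gap exceeded 20. The members and lists were chosen with earlier results of these data known. Alternatives were the scaling, the arrays fitted, single features, the replicate number, the runs of database numbers, a muscle covariate, the threshold and leaving out each array, and, added later, the prostate secretory list without Spink1. Promoter sequences are from RefSeq. The 38 arrays that set tumor directly against normal mammary gland were not used.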

Additional observations from a re-analysis of the deposited data

Results flagged for a closer look

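Among 391 sets of 4 arrays (a named gene or a list mean in 1 tissue), 25 held a value far from the other 3, where chance gives about 1 in 20. Seminal vesicle array 4 held 9 of the 25 and prostate array 4 held 6.

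In prostate, array 1 was high for Dcpp3 at 7.89 (the others 6.95 to 7.06), for Mb at 6.10 (5.47 to 5.57) and for the skeletal muscle mean at 3.53 (3.00 to 3.06). Prostate array 3 was low for Gne at 1.81 (2.35 to 2.42) and for the endothelium mean at 0.59 (0.72 to 0.73), and high for Ogn at 0.56 (0.33 to 0.35). Prostate array 4 was high for Hsd17b4 at 1.5 (0.81 to 0.92), Ldhb at 0.26 (-0.10 to -0.06), Lst1 at 0.13 (-0.32 to -0.30), the antioxidant mean at 0.11 (0.01 to 0.02) and the ribosomal protein mean at -1.27 (-1.69 to -1.62). It was low for Mylpf at 3.33 (5.13 to 5.25).

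In seminal vesicle, array 4 was high for Apod at 1.72 (the others 1.07 to 1.14), Gsn at 1.11 (0.56 to 0.64), Pkp1 at 1.54 (0.98 to 1.00), Rps6 at -0.21 (-0.78 to -0.70) and the basal cell mean at 0.51 (0.31 to 0.32). It was low for Hsd17b4 at 0.06 (0.25 to 0.26), Nr3c1 at -1.47 (-1.12 to -1.08), Oaz2 at -0.36 (-0.22 to -0.19) and the T cell mean at -0.31 (-0.15 to -0.12). Seminal vesicle array 1 was low for Anxa1 at -3.25 (-3.02 to -3.01) and high for the immediate early mean at -0.16 (-0.81 to -0.77). Seminal vesicle array 2 was high for Gdnf at 1.10 (0.64 to 0.67), and array 3 low for Cmas at -0.50 (-0.23 to -0.22).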

How the results depend on the processing

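Of the 152 named genes, 146 passed, and 143 of these kept call and sign under both median centring and quantile normalization. Leaving out each array in turn, 144 of the 146 kept both, and the count of passing genes ranged from 3003 to 3345 (1463 to 1645 higher, 1540 to 1700 lower). Clu lost its call without seminal vesicle array 4 (-0.87, adjusted p = 0.0575) and under quantile normalization (-0.90). Odc1 lost it without prostate array 2 (0.32, adjusted p = 0.0846), without seminal vesicle array 1 (0.36, adjusted p = 0.0584) and under quantile normalization (0.25), as did Krt5 there (0.40). Fitted on the 8 arrays alone, Hoxa10 (adjusted p = 0.00349) and Hoxb13 (adjusted p = 0.00332) passed. The cause of these changes was not tested.

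With runs of database numbers as factors 1733 genes passed (907 higher, 826 lower), and the median standard error was 0.24. With the muscle covariate 770 passed (387 higher, 383 lower) at a median standard error of 0.29; 708 of them were called with the same sign without it and 7 with the opposite sign. Requiring 2-fold gave 636 genes (416 higher, 220 lower), or 627 (409 higher, 218 lower) at an unadjusted p under 0.001. Of the named genes, 21 lost their call with the runs as factors and 41 with the muscle covariate, beside those that reversed. The muscle covariate turned round Acta2 (-0.35), Actg2 (-0.68), Apobec2 (-1.49), Myh1 (-0.83), Myh6 (-0.11), Mylpf (-0.57), Tnnc2 (-3), Tnni2 (-1.87), Tnnt3 (-0.11) and Tpm2 (-1.57). No named gene was turned round under the other alternatives run.

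The replicate block gave 3346 genes. Same-numbered arrays of the 2 tissues correlated at 0.131, 0.024, 0.05 and 0.108 in their deviations, and arrays 2 and 4 correlated better with another number, so the numbers were not taken as pairs. The number of arrays limits the precision.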

Other observations

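Features of 1 gene did not always move together. Of 180 genes with at least 2 features past the threshold, 47 had features of opposite sign, and testing each feature on its own gave 4693 of 9550 features. Each feature is a separate cDNA spot, and gene values are means over spots.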
